A study of Homo sapiens with 32 samples.

Results

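The genes described here encode the receptors for the neurotransmitters glutamate, GABA and glycine. They were chosen by symbol alone (GRIA, GRIK, GRID, GRIN, GRM, GABR, GABBR, GLRA and GLRB), with no use of expression values, which gave 52 of the 28278 gene symbols in the count tables. All 52 were also found by Ensembl identifier in the knockdown table. The set held 4 AMPA, 5 kainate, 2 delta and 7 NMDA receptor subunits, 8 metabotropic glutamate receptors, 19 GABA-A subunits, 2 GABA-B subunits and 5 glycine receptor genes, spread over 16 chromosomes.

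RNA was sequenced from Ewing sarcoma lines, tumor cells driven by the fusion protein EWS::FLI1, to ask which genes respond to loss of the cohesin subunit STAG2. In A673 cells, experiment 1 held a WT clone sequenced in 2 libraries, parental cells and 2 STAG2 KO clones. Experiment 2 held 2 WT clone libraries, parental cells, STAG2 KO clones 2, 3 and 5, and 3 clones each with KO of EZH2 or SUZ12, subunits of the Polycomb repressive complex PRC2. Experiment 3 held parental cells, the WT clone and 3 STAG1 KO clones, STAG1 being the variant of STAG2 found in other cohesin complexes. In experiment 4, A673 cells received an siRNA against STAG2 or served as controls (siC), with 3 libraries of each. Isogenic pairs came from SK-N-MC, which has STAG2 and was edited to STAG2 KO, and from A4573, which lacks STAG2 and was edited to restore it (STAG2 KI), with 1 library per arm. The edited A673 clones all derived from a clone carrying an inducible Cas9, the WT clone. The WT clone and the parental cells together served as controls. The titles number the STAG2 KO clones of experiment 1 as 1 and 4 and the STAG1 KO clones as 1, 2 and 3, whereas the count columns carry 5 and 24, and 1, 5 and 7. Those libraries are named here by their column, since the labels do not tell which titled clone each is. STAG2 KO column 5 of experiment 1 shares its number with clone 5 of experiment 2, although the titles differ. Whether they are the same clone cannot be told from the labels, and the fits counted each library separately.

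AMPA, kainate and NMDA receptors are cation channels opened by glutamate and carry fast excitation in the brain, whereas GABA-A and glycine receptors are chloride channels that mostly inhibit. Metabotropic glutamate receptors and GABA-B receptors signal through G proteins. Channels are assembled from subunits of several genes of a class, so that the presence of a single subunit does not show that a receptor is formed. Ewing sarcoma cells are not neurons but express a number of neural genes.

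The 22 A673 clone libraries held 15734628 to 20663679 counts, the 4 isogenic libraries 29322507 to 32261248 and the knockdown libraries 6852340 to 8184632 reads. STAG2 transcript stood at 247 to 349 CPM (counts scaled to library size) in the controls of experiments 1 and 2, against 43.1 to 68.3 CPM in 4 STAG2 KO libraries and 186 CPM in the STAG2 KO library of column 24. STAG1 transcript stood at 62.1 CPM in the library labelled STAG1 KO in column 1, between the 57.8 and 68.9 CPM of its controls, and at 15.1 and 33.0 CPM in columns 5 and 7. EZH2 transcript was 28.1 to 55.5 CPM in EZH2 KO against 165 to 188 CPM in controls, and SUZ12 transcript 11.3 to 20.7 CPM in SUZ12 KO against 57.8 to 64.8 CPM. Of 10 Ewing sarcoma markers, 9 averaged at least 5 CPM in each A673 group (CD99 was listed at 0 in every library). In experiment 1 the pair of WT clone libraries had a mean chi-square of only 1.33 per gene between them, where other pairs of clone libraries of a group had 9.41 to 140 and knockdown pairs of a group 1.93 to 11.4. Nothing in the labels says that libraries came from separate cultures, so p-values measure the spread between these libraries. In bulk RNA, fewer expressing cells and less RNA per cell cannot be told apart.

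Most receptor genes were silent or nearly so in A673 cells. In the 6 control libraries of experiments 1 and 2, 18 of the 52 genes had no count in any library and 31 had no more than 3 counts in their highest library, the number that a count of 0 still allows. Those above it comprised 3 of the 5 kainate subunits, 5 of the 7 NMDA subunits, 5 of the 19 GABA-A subunits, 4 of the 8 metabotropic receptors, and 1 gene each of the AMPA, delta, GABA-B and glycine classes. Over all clone libraries, 19 genes never passed 3 counts, and 10 did not do so in the isogenic lines either.

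A few genes held nearly all receptor RNA. Per kilobase of the canonical transcript, GRIK2, a kainate receptor subunit, reached 29.3 ± 3.68 CPM per kb (SD, n = 6 controls) and made up 58.5% of the summed level of the 52 genes. GABBR1, the GABA-B subunit that binds GABA, followed at 8.78 ± 2.26 CPM per kb. Next came GLRB, the glycine receptor subunit that binds the scaffold gephyrin, at 2.98 ± 0.77, the kainate subunit GRIK5 at 2.49 ± 2.39, the NMDA subunit GRIN2D at 2.34 ± 0.73 and the GABA-A subunit GABRB1 at 1.64 ± 0.80 CPM per kb. The ranges of GRIK2, 23.6 to 33.6, and GABBR1, 6.23 to 11.8 CPM per kb, did not overlap each other or those below, whereas neighbouring genes from GLRB to GABRB1 overlapped. GABRA4 at 0.685 ± 0.495 and the metabotropic receptor GRM2 at 0.627 ± 0.195 CPM per kb came after them. GRIN2C, next in order, stood at 0.323 CPM per kb. Below GABBR1 the order differed between the experiments: the control mean of GRIK5 was 4.46 CPM per kb in experiment 1 and 0.523 in experiment 2, that of GABRA4 1.06 and 0.308, that of GRM2 0.502 and 0.753, and that of GRIN2C 0.636 and 0.00967 CPM per kb.

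**Figure D1:**
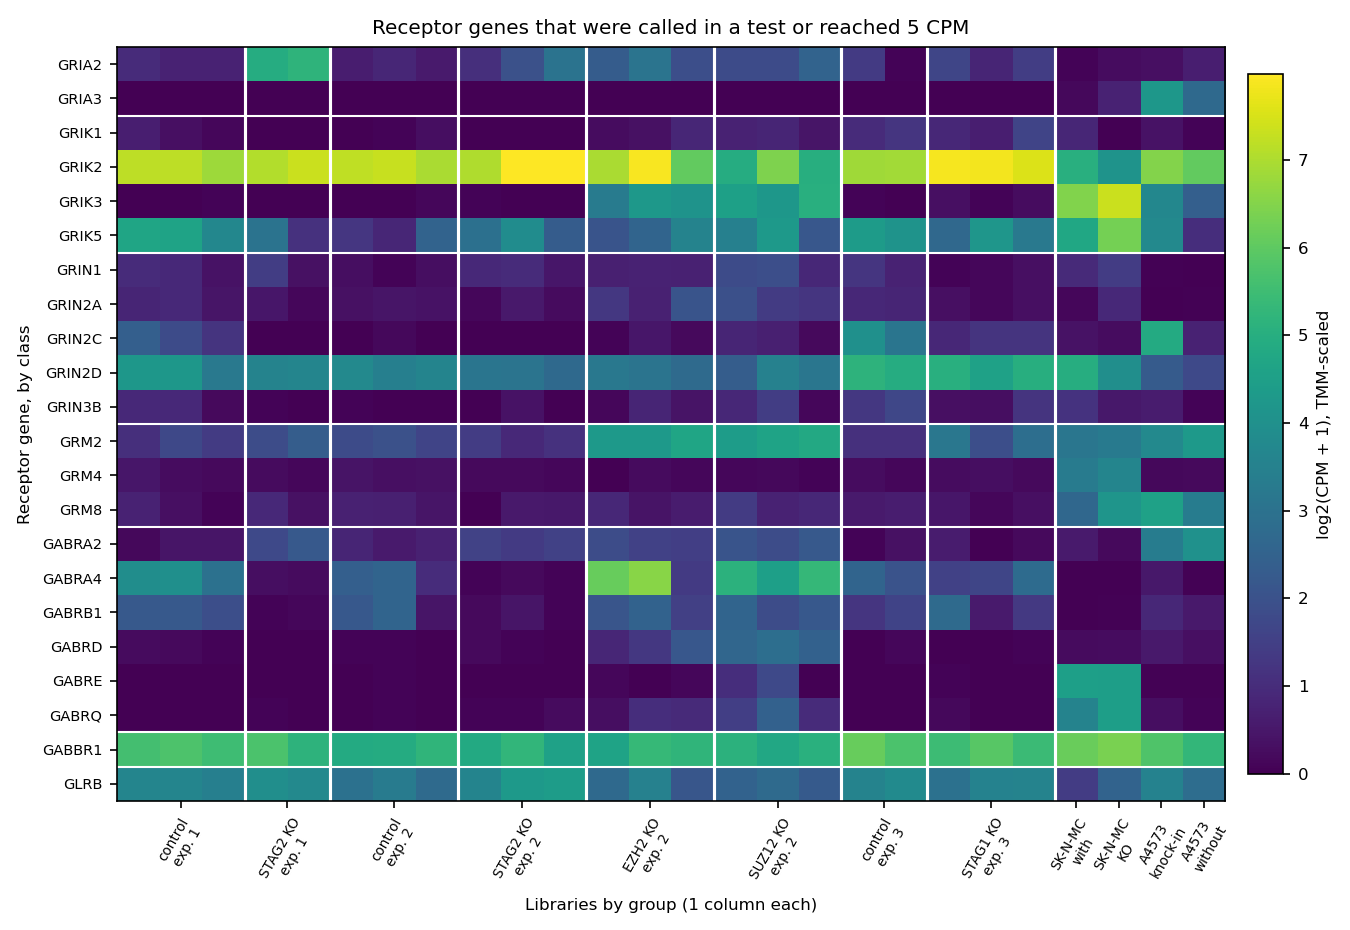
Heat map of the receptor genes that were called in a test or reached 5 CPM, as log2(CPM + 1) scaled by the trimmed mean of M values (TMM), with genes in rows by receptor class and A673 clone and isogenic libraries in columns. GRIK2 and GABBR1 are expressed in every library. Among the A673 columns, GRIK3, GRM2 and GABRD stand out in EZH2 KO and SUZ12 KO. GABRE, GABRQ and GRM4 stand out in SK-N-MC, where GRIK3 is higher still, and GRM8 in both isogenic lines.

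The 5 receptor genes called in STAG2 KO lie on chromosome 4. GABRA4 and GABRB1 encode an alpha and a beta subunit of the GABA-A receptor and are arranged head to head, with canonical starts 38.0 kb apart, and GABRA2, another alpha subunit, lies in the same cluster with its start 603.5 kb from that of GABRA4. GRIA2, the AMPA subunit that keeps calcium out of the channel, and GLRB lie together on the long arm, with starts 144.6 kb apart. Promoter sequences are shown for the 4 of them with the largest changes. Each covers 300 bases around a RefSeq start in build GRCh38, 5′ to 3′ on the gene's strand, with CG dinucleotides in capitals. GABRA4 is taken from chr4:46993532-46993831 on the minus strand, GABRB1 from chr4:47031317-47031616 on the plus strand, GABRA2 from chr4:46390251-46390550 on the minus strand and GRIA2 from chr4:157220369-157220668 on the plus strand.

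GABRA4: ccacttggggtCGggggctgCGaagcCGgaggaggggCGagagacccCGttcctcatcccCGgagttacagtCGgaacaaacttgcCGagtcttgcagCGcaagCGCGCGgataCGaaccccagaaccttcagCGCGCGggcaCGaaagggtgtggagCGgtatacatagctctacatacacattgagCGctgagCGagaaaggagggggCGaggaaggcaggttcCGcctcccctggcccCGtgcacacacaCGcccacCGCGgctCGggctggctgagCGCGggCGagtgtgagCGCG

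GABRB1: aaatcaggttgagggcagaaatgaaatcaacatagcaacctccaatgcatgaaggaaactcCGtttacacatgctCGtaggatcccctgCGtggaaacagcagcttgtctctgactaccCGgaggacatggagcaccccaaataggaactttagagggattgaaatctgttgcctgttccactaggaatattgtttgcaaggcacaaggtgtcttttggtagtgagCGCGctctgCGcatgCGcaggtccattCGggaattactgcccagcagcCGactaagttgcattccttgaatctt

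GABRA2: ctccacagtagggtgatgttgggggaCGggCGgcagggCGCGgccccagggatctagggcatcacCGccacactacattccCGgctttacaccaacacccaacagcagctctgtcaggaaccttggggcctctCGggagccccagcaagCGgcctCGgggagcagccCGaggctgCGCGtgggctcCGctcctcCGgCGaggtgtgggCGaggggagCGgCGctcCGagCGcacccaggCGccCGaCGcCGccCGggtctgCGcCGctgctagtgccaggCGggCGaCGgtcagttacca

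GRIA2: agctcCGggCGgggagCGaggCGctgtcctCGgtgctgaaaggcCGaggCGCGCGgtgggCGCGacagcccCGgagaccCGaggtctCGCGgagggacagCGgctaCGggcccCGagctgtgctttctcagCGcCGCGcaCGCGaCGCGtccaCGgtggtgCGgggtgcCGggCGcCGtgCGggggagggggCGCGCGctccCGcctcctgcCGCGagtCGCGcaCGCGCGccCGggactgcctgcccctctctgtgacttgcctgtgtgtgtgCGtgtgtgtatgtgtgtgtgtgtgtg

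The windows of GABRA4, GABRA2 and GRIA2 held 32, 30 and 44 CG dinucleotides on the strand shown, and that of GABRB1 10. Over 35116 promoters of that length the median was 14, with quartiles at 4 and 28. The outermost annotated start of GABRB1, at position 46993723, falls inside the GABRA4 window, so that a transcript of GABRB1 begins next to GABRA4 while its canonical start lies beyond. Tandem GGAA, the repeat bound by EWS::FLI1, was searched as GGAAGGAA on both strands. It was found in 3.67% of all promoters and in 0 of the 38 receptor promoters at hand, which says only that these letters are absent from these windows.

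Loss of STAG2 in A673 clones was followed by a near disappearance of GABRA4 and GABRB1 transcripts and by higher levels of GRIA2 and GABRA2. In the controls of experiment 1 GABRA4 stood at 14.0 and 14.6 CPM in the WT clone and 6.85 CPM in parental cells, and in experiment 2 at 4.37, 4.90 and 1.02 CPM. The 5 STAG2 KO libraries lay at 0.235 CPM (column 5) and 0.171 CPM (column 24) in experiment 1, and at 0.052 to 0.157 CPM in experiment 2. Every KO library lay below every control library. The log2 fold change was -5.50 ± 0.55 (SE), with an adjusted p of 0.000170 in edgeR's quasi-likelihood test over the 11 libraries.

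GABRB1 stood at 3.72, 3.65 and 2.77 CPM in the controls of experiment 1 and at 3.61, 4.96 and 0.377 CPM in those of experiment 2, parental cells last in each. STAG2 KO libraries held 0.059 and 0.114 CPM in experiment 1, and 0.156, 0.366 and 0.055 CPM in clones 3, 5 and 2 of experiment 2. The groups did not overlap, although the parental library at 0.377 CPM lay just above KO clone 5 at 0.366 CPM. Its log2 fold change was -4.34 ± 0.71 (edgeR adjusted p = 0.00289). Of the 11 fits that left out a library, 6 kept the call and 5 did not test the gene.

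GRIA2 moved the other way and unevenly between experiments. Controls ranged from 0.484 to 0.989 CPM, and KO libraries reached 29.9 and 35.3 CPM in experiment 1 but 1.09, 2.93 and 7.18 CPM in clones 3, 5 and 2 of experiment 2. All KO libraries were above all controls, with a log2 fold change of 3.96 ± 0.62 (edgeR adjusted p = 0.00220). Experiment 1 alone gave 5.35 (adjusted p = 0.00242) and experiment 2 alone 2.61 (adjusted p = 0.0878).

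GABRA2 was low throughout, at 0.116 to 0.765 CPM in controls against 2.35 and 3.65 CPM in the KO clones of experiment 1 and 1.57 to 1.98 CPM in those of experiment 2. The groups again did not overlap, and the log2 fold change was 2.34 ± 0.41 (edgeR adjusted p = 0.00432). Experiment 1 alone gave 3.34, and experiment 2 alone 1.52 with an adjusted p of 0.0698. Exons of GABRA2 overlap a long non-coding RNA on either strand, and the libraries were not directional, so reads of these cannot be told apart.

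GLRB was the fifth gene called, by a narrow margin. Controls held 5.81 to 11.5 CPM and KO libraries 11.03 to 20.2 CPM, with the 14.4 and 12.5 CPM of experiment 1 just above their own controls at 9.78 to 11.5 CPM. Its log2 fold change of 0.82 ± 0.24 had an edgeR adjusted p of 0.0482, and the call was lost in 9 of the 11 fits that left out a library, with adjusted p up to 0.1401.

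In all, 12 receptor genes passed the filter on low counts in this comparison, of which 3 rose and 2 fell, against 6.67% and 5.76% of the 13574 genes tested. GABRA2 and GRIA2 could not have passed it without the KO libraries, nor GABRA4 and GABRB1 without the controls, so that these counts are a description. The median log2 change of the 12 was 0.07, and that of all genes 0.04. The 7 genes not called included GRIK2, at 0.39 (adjusted p = 0.213), GRIN1, the obligatory NMDA subunit, at 1.29 (adjusted p = 0.199), and GRIN2D, at -0.55 (adjusted p = 0.130). GABBR1, GRM2, GRM8 and GRIK5 had changes from -0.11 to 0.21 over both experiments. For GRM2 and GRIK5 these pooled values hide shifts that differed by experiment. GRM2 lay above controls in experiment 1, at 2.59 and 4.16 against 1.11 to 2.33 CPM. It lay below them in experiment 2, at 0.889 to 1.67 against 2.10 to 2.91 CPM. GRIK5 varied between experiments, with controls at 12 to 24.7 CPM in experiment 1 and 0.806 to 4.84 CPM in experiment 2. Its KO libraries lay below the controls in experiment 1, at 7.18 and 1.198 CPM. In experiment 2, clones 3 and 5 lay above them, at 6.76 and 13.7 CPM, and clone 2 within their range. No receptor gene had a STAG2 effect that differed between the experiments by edgeR, the lowest adjusted p being 0.0865. Over all 13574 genes tested, 0 were called as well. An unadjusted edgeR p under 0.05 was found for 5 of the 12, against 30.6% of all genes, so that these counts are a description. DESeq2 called 3 (GRIA2, GRIK5 and GRM2), and its share over all genes is not given here. When that near-identical pair of WT clone libraries was summed into 1, 3 genes were called, GABRA4, GRIA2 and GABRA2. GABRB1 then failed the filter and GLRB had an adjusted p of 0.0672. Without the library of column 24, whose STAG2 transcript was the highest of the KO libraries, all 5 were called. Parental cells as the only control left GABRA4 alone. Summed markers moved with STAG2 KO as well. The 3 epithelial markers lay at 9.42 to 14.5 CPM against 23.1 to 27.1 CPM in experiment 1 and at 8.95 to 11.1 against 25.7 to 37.4 CPM in experiment 2, and the 10 Ewing sarcoma markers at 2377 to 3174 against 3360 to 3799 CPM and 2234 to 2271 against 2832 to 3005 CPM. In experiment 1 the 6 fibroblast markers lay at 249 to 419 against 545 to 575 CPM and the 8 neuronal markers at 177 to 180.1 against 245 to 299 CPM, while in experiment 2 both overlapped between groups. Their part in the receptor changes was not tested.

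**Figure D2:**
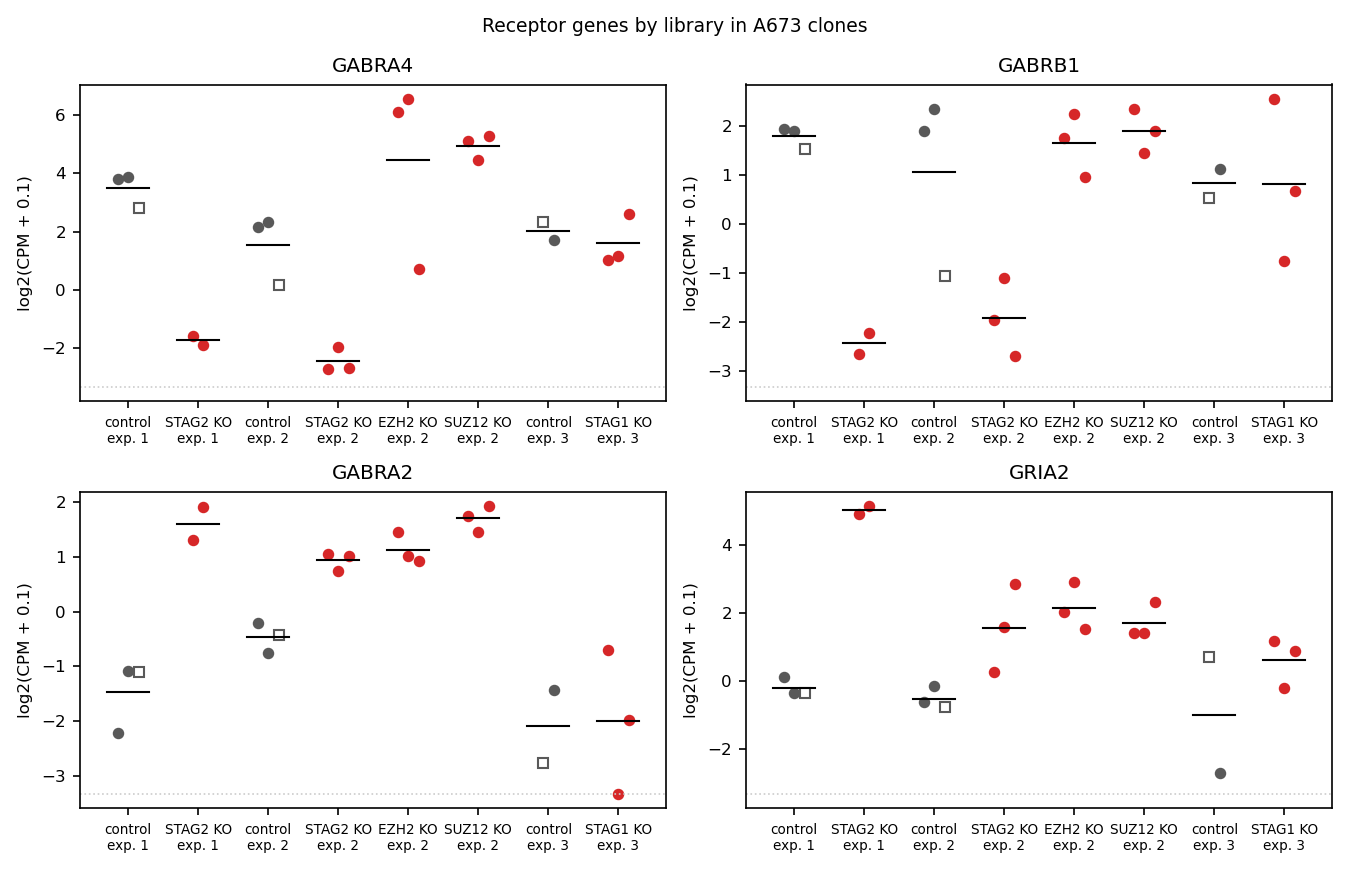
Levels as log2(CPM + 0.1) of GABRA4, GABRB1, GABRA2 and GRIA2 in each library of experiments 1 to 3, with the WT clone as grey and KO clones as red circles, parental cells as open squares, bars at group means of the log values and a dotted line at 0 CPM. GABRA4 and GABRB1 are lowest in the 5 STAG2 KO libraries, whereas GRIA2 is highest in the STAG2 KO libraries of experiment 1, at 29.9 and 35.3 CPM.

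GRIN2C, a regulatory NMDA subunit, did not pass the filter but had no count in any of the 5 STAG2 KO libraries. Control libraries of experiment 1 held 4.31, 2.54 and 1.31 CPM, or 147 counts in sum, which makes the KO level at least 30.6-fold lower, taking a floor of 3 counts over the group. Controls of experiment 2 held only 0, 0.124 and 0 CPM, where no difference was detectable. DESeq2, run without this filter, called it in STAG2 KO.

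Around GABRA4, none of the tested genes outside the receptor set was called. Within 1 Mb these were 3 (COMMD8, ATP10D and NFXL1), with starts 470.1 kb or more away. Of the 3, 0 were called in STAG2 KO, in EZH2 KO or in SUZ12 KO. As only 6.67% and 5.76% of all genes rose and fell in STAG2 KO, 0 of 3 does not set them apart. COX7B2, with its start 84.3 kb away, and CORIN were not tested. ATP10D, the largest of the 3 in STAG2 KO, changed by -0.56 ± 0.32 (edgeR adjusted p = 0.296). Around GRIA2, 3 other genes were tested, and GASK1B rose in STAG2 KO by 1.001 ± 0.28 (adjusted p = 0.0386) and in EZH2 KO and SUZ12 KO by 1.91 and 2.33, at a distance of 952.3 kb. PDGFC and TMEM144 were not called in any of them.

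**Figure D3:**
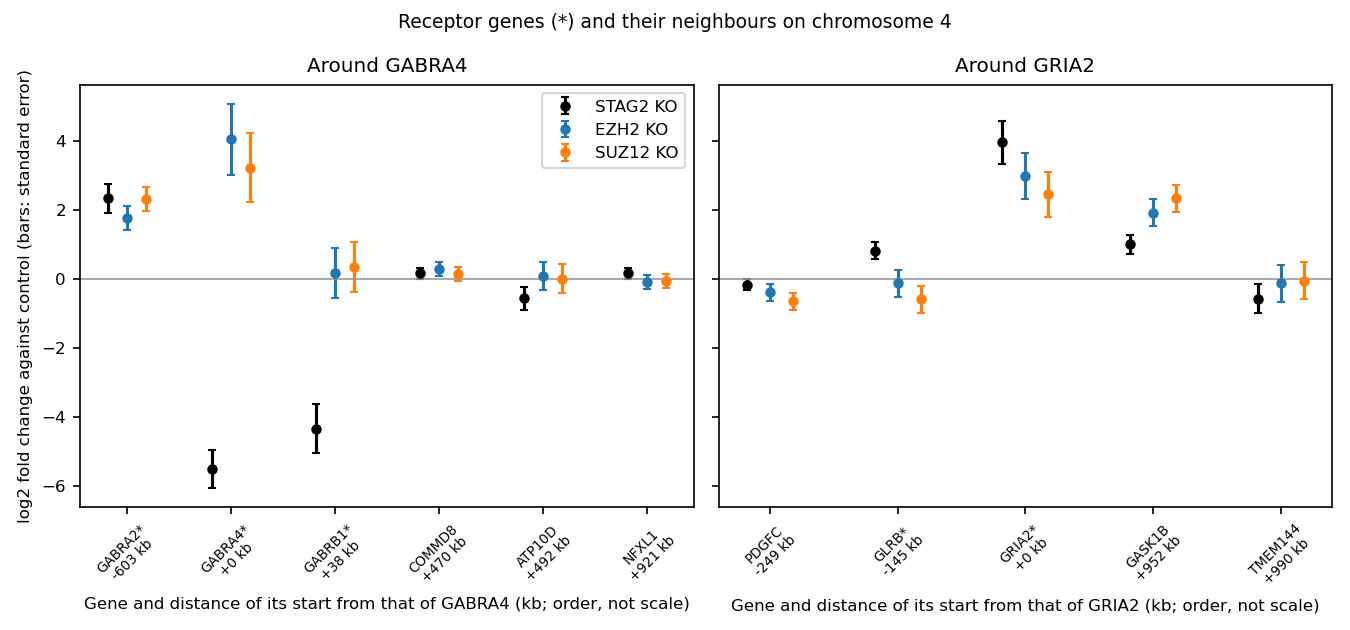
Log2 fold change ± SE of the tested genes within 1 Mb of GABRA4 and of GRIA2, in genomic order but not to scale, in STAG2 KO, EZH2 KO and SUZ12 KO. GABRA4 at -5.50 and GABRB1 at -4.34 fall in STAG2 KO, while COMMD8, ATP10D and NFXL1, with starts 470.1 kb or more from that of GABRA4, were not called.

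Knockdown of STAG2 by siRNA lowered GABRA4 as well. STAG2 itself stood at 992 to 1090 normalized reads in siC and 144 to 180 in knockdown libraries. Receptor genes averaging 10 or more normalized reads numbered 6, of which 2 rose and 2 fell by limma, against 9.54% and 11% of the 12060 genes tested, and their median log2 change was 0.04 against 0.01 over all genes. GABRA4 held 20.02, 31.3 and 17.7 normalized reads in siC against 3.71, 6.66 and 8.69 after knockdown, without overlap, and its log2 change on the log2(value + 1) scale was -1.73 ± 0.37 (limma adjusted p = 0.00131). GRIN2C went from 16.2, 13.5 and 23.6 to 3.71, 1.11 and 1.93 normalized reads, a log2 change of -2.57 ± 0.46 (limma adjusted p = 0.000202).

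GABRB1, at 15.2, 10.4 and 11.8 normalized reads in siC and 0.927, 0 and 0.966 after knockdown, had a mean under the minimum and was not tested in that fit, and its values did not overlap. GRIK2 and GABBR1 rose. GRIK2 went from 327, 316 and 366 to 495, 519 and 519 normalized reads (log2 change 0.61 ± 0.08, limma adjusted p = 2.59e-06), and GABBR1 from 118, 127 and 123 to 189, 155 and 169 (0.47 ± 0.12, adjusted p = 0.00439). Exons of GABBR1 overlap UBD and OR2I1P. GRIA2, which rose in the STAG2 KO clones, held 9.53, 2.08 and 2.95 normalized reads in siC and 6.49, 5.55 and 7.73 after knockdown, with overlapping groups and too few reads to be tested.

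After loss of PRC2, 10 receptor genes rose in at least 1 of the KO groups, several of them from near 0 in control cells. PRC2 methylates histone H3 at lysine 27 and keeps developmental genes off. Of 19 receptor genes tested, EZH2 KO raised 8 and lowered 0, against 12% and 3.69% of the 15130 genes tested, and SUZ12 KO raised 10 and lowered 1, against 14.7% and 5.87%. The median log2 changes of the 19 were 2.14 and 2.45, where those of all genes were 0.04 and 0.01. Genes silent in controls entered the test only through the KO libraries, so that these counts and medians are a description and not evidence about the class. Promoters are shown for the 2 genes with the lowest adjusted p, from chr1:37034466-37034765 on the minus strand for GRIK3 and chr3:51706818-51707117 on the plus strand for GRM2, with CG in capitals as above.

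GRIK3: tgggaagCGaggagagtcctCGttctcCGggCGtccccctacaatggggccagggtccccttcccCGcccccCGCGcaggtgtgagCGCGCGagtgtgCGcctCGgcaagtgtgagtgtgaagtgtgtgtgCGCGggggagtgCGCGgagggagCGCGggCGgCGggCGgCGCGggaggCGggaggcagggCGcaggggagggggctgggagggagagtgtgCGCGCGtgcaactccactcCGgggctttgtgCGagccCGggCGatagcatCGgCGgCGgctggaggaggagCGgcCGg

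GRM2: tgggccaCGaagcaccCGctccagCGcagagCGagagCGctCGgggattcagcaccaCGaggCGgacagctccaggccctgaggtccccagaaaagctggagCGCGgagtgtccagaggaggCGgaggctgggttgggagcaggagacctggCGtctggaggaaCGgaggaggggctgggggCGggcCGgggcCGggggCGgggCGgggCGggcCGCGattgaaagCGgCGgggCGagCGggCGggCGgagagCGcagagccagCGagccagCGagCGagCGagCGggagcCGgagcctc

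They held 37 and 34 CG dinucleotides. Of the 10 genes that rose in either KO, 8 had a promoter in the table, with 13 to 44 CG and a median of 33. The other 42 members included 30 with a promoter, with 2 to 50 CG and a median of 12.5. Those 42 hold the 33 genes with too few counts to be tested, so the sets also differ in detection. Whether CG content goes with the response was not tested.

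GRIK3, a kainate subunit, was at 0, 0 and 0.108 CPM in the WT clone and parental libraries of experiment 2, which is 2 counts in all. EZH2 KO clones held 8.99, 18 and 16 CPM and SUZ12 KO clones 22.2, 17.8 and 31.6 CPM. All 6 lay far above the controls, by a ratio of 376 (95% counting interval 104 to 3108) in EZH2 KO and 622 (172 to 5139) in SUZ12 KO. The edgeR adjusted p was 4.41e-05 and 2.30e-05.

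GRM2, a metabotropic receptor that lowers cyclic AMP, was already present in controls at 2.57, 2.91 and 2.10 CPM. It reached 18.6, 19.0 and 24.7 CPM in EZH2 KO and 20.3, 23.7 and 27.3 CPM in SUZ12 KO. The 3 libraries of each group lay close together and apart from the controls. Log2 fold changes were 3.08 ± 0.27 and 3.25 ± 0.27 (edgeR adjusted p = 4.44e-05 and 3.06e-05).

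GABA-A subunits made up 4 of the genes that rose in both. GABRD, the delta subunit of receptors outside synapses, went from 0.055, 0.062 and 0 CPM to 0.809, 1.43 and 3.44 CPM in EZH2 KO and 5.19, 6.40 and 4.61 CPM in SUZ12 KO. Its ratios to the controls, which held 2 counts, were 50.9 (95% counting interval 13.8 to 425) and 144 (39.7 to 1198), with edgeR adjusted p of 0.00222 and 0.000432. GABRQ, the theta subunit, had 1 control count and rose to 0.238 to 1.04 CPM and 0.975 to 4.54 CPM, with adjusted p of 0.0122 and 0.00142 by edgeR. GABRA2 rose by 1.76 ± 0.34 and 2.32 ± 0.35 on the log2 scale, to 1.79 to 2.62 CPM and 2.63 to 3.68 CPM.

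GABRA4 responded in 5 of the 6 PRC2 clones. Controls held 4.37, 4.90 and 1.02 CPM, EZH2 KO clones 68.8, 94.1 and 1.56 CPM and SUZ12 KO clones 34.1, 21.7 and 38.9 CPM. EZH2 KO clone 3 thus stayed within the control range while the other two were the highest of all clone libraries. Log2 changes of 4.05 ± 1.03 and 3.22 ± 0.997 had edgeR adjusted p of 0.0211 and 0.0397, and these calls were lost in 5 and 8 of the 12 fits that left out a library. GABRB1 beside it was not called, at 3.28, 4.66 and 1.84 CPM in EZH2 KO and 4.99, 2.63 and 3.63 CPM in SUZ12 KO (log2 changes 0.18 and 0.35).

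Among the ionotropic glutamate receptors, GRIA2 rose to 3.95, 7.46 and 2.78 CPM in EZH2 KO and 2.54, 2.54 and 4.88 CPM in SUZ12 KO from 0.484 to 0.806 CPM, with log2 changes of 2.99 ± 0.67 and 2.45 ± 0.66 (edgeR adjusted p = 0.0117 and 0.0220). GRIN2A, a glutamate-binding NMDA subunit, rose from 0.273 to 0.372 CPM to 0.658 to 3.21 CPM and 1.35 to 2.89 CPM (adjusted p = 0.0273 and 0.0175). GRIN1 rose in SUZ12 KO by 3.58 ± 0.62 (adjusted p = 0.00203) and missed the threshold in EZH2 KO at 1.98 ± 0.63 (adjusted p = 0.0524), and GRIN3B, whose exons overlap TMEM259, was called in SUZ12 KO from 1 control count (adjusted p = 0.0360). Of the 12 fits that each left out a library, 4 and 4 lost the GRIN2A calls in EZH2 KO and SUZ12 KO, 2 and 4 those of GRIA2, 5 that of GRIN3B in SUZ12 KO and 2 that of GABRQ in EZH2 KO.

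The abundant GRIK2 was the gene that fell. Controls of experiment 2 held 146, 159 and 123 CPM, and SUZ12 KO clones 29.8, 86.1 and 30.9 CPM, a log2 change of -1.53 ± 0.49 (edgeR adjusted p = 0.0470), and this call was lost in 6 of the 12 fits that left out a library. EZH2 KO clones ranged from 65.2 to 238 CPM around the controls (log2 change 0.04). The direct comparison of EZH2 KO with SUZ12 KO called 0 receptor genes by edgeR and 0 by DESeq2, against 0.00661% of all genes by edgeR. Of the 19 tested, 4 had an unadjusted edgeR p under 0.05 (GRIK2, GRIN1, GABRD and GABRQ), against 4.16% of all genes. All 8 genes called in EZH2 KO were among the 11 called in SUZ12 KO (72.7% of them), but both comparisons use the same 3 controls. The overlap over all genes was not computed, so this count is a description and not a trait of receptor genes.

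With the WT clone as the only control, 4 genes were called in EZH2 KO (GABRA2, GABRD, GRIK3 and GRM2). In SUZ12 KO the same setting lost the calls of GABRA4, GRIA2, GRIK2, GRIN2A and GRIN3B. Epithelial markers moved with the PRC2 clones: their summed level was 286 to 486 CPM in EZH2 KO and 174 to 877 CPM in SUZ12 KO against 25.7 to 37.4 CPM in the controls of experiment 2. KRT8 made up nearly all of it, and EPCAM and CDH1 stayed at no more than 2.27 and 0.454 CPM in any clone library. Fibroblast markers lay at 417 to 440 CPM in SUZ12 KO against 497 to 1142 CPM in controls, and overlapped the controls in EZH2 KO. Neuronal markers lay at 243 to 258 CPM in EZH2 KO against 216 to 240 CPM, and overlapped the controls in SUZ12 KO. Their part in the receptor changes was not tested.

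**Figure D4:**
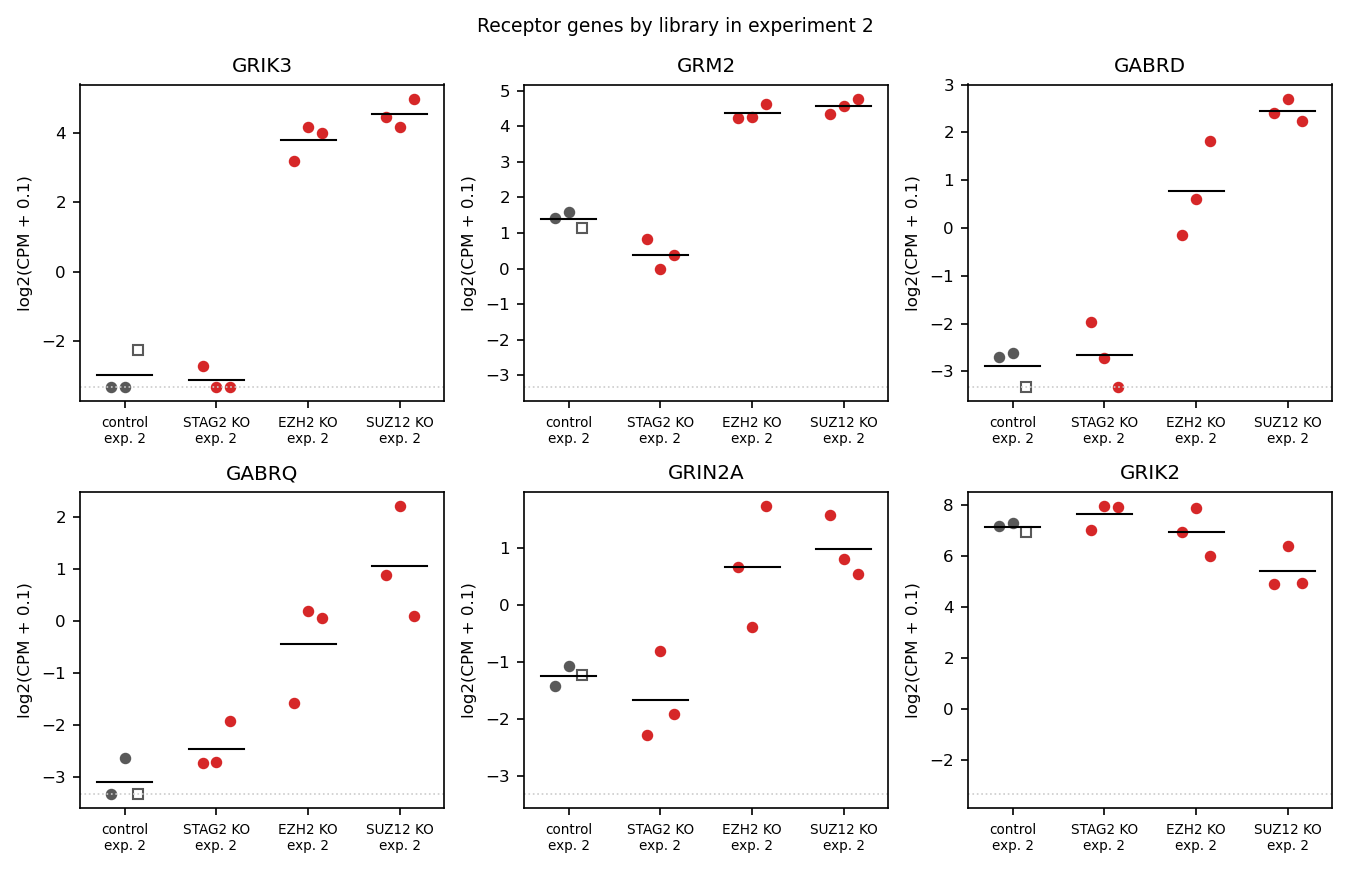
Levels as log2(CPM + 0.1) of GRIK3, GRM2, GABRD, GABRQ, GRIN2A and GRIK2 in each library of experiment 2, by group, with WT clone as grey and KO clones as red circles, parental cells as open squares, bars at group means of the log values and a dotted line at 0 CPM. GRIK3 rises from at most 0.108 CPM in controls to between 8.99 and 31.6 CPM in the EZH2 KO and SUZ12 KO clones, and GRIK2 is lowest in SUZ12 KO.

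STAG2 KO and PRC2 KO clones of experiment 2 were also compared with each other. Of the 19 genes tested, 8 were lower and 2 higher in STAG2 KO than in the mean of EZH2 KO and SUZ12 KO, against 15.9% and 13.8% of all genes, and the median was -1.65 against -0.01. GRIK3, GABRD, GABRQ and GRIK1 were at or near 0 in the controls and STAG2 KO libraries and entered the test through the PRC2 KO libraries, so that these counts and the median are a description. GABRA4 differed by -8.78 ± 1.45 (edgeR adjusted p = 0.00114), having fallen in the former and risen in most of the latter, and GABRB1 by -4.13 ± 0.85 (adjusted p = 0.00387). GRIK3, GABRD, GABRQ, GRIN2A and GRM2 were lower in STAG2 KO, with log2 differences between -2.88 and -9.59. GRIK1, a kainate subunit whose exons overlap BACH1, had 0 counts in STAG2 KO and 64 in the PRC2 clones, at least 9.95-fold lower in the former. GLRB and GRIK2 were higher in STAG2 KO, by 1.58 ± 0.32 and 1.33 ± 0.40. GRIA2 and GABRA2, which rose after either loss, differed by -0.09 ± 0.52 and -0.51 ± 0.29 and were not called.

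Neither GABRA4 nor GABRB1 was called in STAG1 KO. GABRA4 held 4.98 and 3.16 CPM in the parental and WT clone libraries of experiment 3 and 1.92, 2.15 and 5.95 CPM in the STAG1 KO libraries of columns 1, 5 and 7, overlapping, with a log2 change of -0.29 ± 0.56 (edgeR adjusted p = 0.788). GABRB1 held 1.35 and 2.07 CPM in the same controls and 5.77, 0.495 and 1.49 CPM in columns 1, 5 and 7. Its log2 change was 0.57 ± 0.94 (edgeR adjusted p = 0.749). STAG1 transcript was at the control level in column 1 and least in column 5. GABRB1 was highest in column 1 and lowest in column 5, whereas GABRA4 was lowest in column 1 and highest in column 7. Whether either gene goes with the remaining STAG1 transcript was not tested. In a test of the difference between the STAG2 and STAG1 effects, GABRA4 differed by -5.24 ± 0.89 (adjusted p = 0.00341), GABRB1 by -4.95 ± 1.30 (adjusted p = 0.0376) and GRIN1 by 4.01 ± 1.04 (adjusted p = 0.0352). These were 2 lower and 1 higher of 18 tested, against 3.75% and 2.36% of all genes, and the GABRB1 and GRIN1 calls were lost in 10 and 9 of the 16 fits that left out a library.

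Of 16 receptor genes tested in STAG1 KO itself, 1 rose and 1 fell, against 2.77% and 2.5% of the 14373 genes tested (median -0.24 against -0.0028 over all genes). GRIN2C fell from 15.2 and 7.58 CPM to 0.834, 1.32 and 1.28 CPM, a log2 change of -3.31 ± 0.39 (edgeR adjusted p = 0.0219). GRIK2 rose from 114 and 115 CPM to 234, 227 and 189 CPM, by 0.91 ± 0.11 (adjusted p = 0.0239). Neither gene's values overlapped the controls, and both calls held without the library of column 1, at -3.12 and 0.87, but neither held when either control was left out. GRM2, at 2.30 ± 0.51 (adjusted p = 0.0585), and GRIN1, at -2.76 ± 0.63 (adjusted p = 0.0630), missed the threshold. The level of GRIN2C in controls ranged from 0 in experiment 2 to 15.2 CPM in experiment 3. Fibroblast markers summed to 1223 to 1724 CPM in STAG1 KO against 560 to 614 CPM in its controls. Epithelial markers summed to 27.7 to 167 against 16.3 to 17.3 CPM and neuronal markers to 274 to 366 against 216 to 253 CPM. Ewing sarcoma and leukocyte markers overlapped between the groups. The part of these markers in the receptor changes was not tested.

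The WT clone and parental cells, both used as controls, differed in 0 of 16 receptor genes by edgeR and 0 by DESeq2. By edgeR 2.72% of the 14167 genes tested differed. An unadjusted edgeR p under 0.05 was found for 4 (GABRA4, GABRB1, GRIK2 and GRIN3B), against 16.4% of all genes. GABRA4 was higher in the WT clone by 0.85 ± 0.38 (adjusted p = 0.302) and GABRB1 by 1.21 ± 0.46 (adjusted p = 0.230).

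SK-N-MC and A4573 cells expressed several receptor genes that were at or near 0 in A673 controls. With 1 library per arm, the values that follow have no replicate check, and 2-fold changes among genes with at least 10 counts are given as a description. GRIK3, silent in A673 controls, stood at 86.7 CPM in unedited SK-N-MC and 160 CPM after its STAG2 KO. GABRE and GABRQ, the epsilon and theta subunits of a cluster on the X chromosome, held 21.7 and 10.95 CPM in SK-N-MC and 21.4 and 21.3 CPM in the KO. GRM4, a group III metabotropic receptor, was at 8.99 and 11.4 CPM there and at no more than 0.163 CPM in A4573. GRIA3, an AMPA subunit with no count in any A673 clone library, reached 17.7 CPM in A4573 STAG2 KI and 5.67 CPM in A4573 without STAG2.

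GABRA4 and GABRB1 were near 0 in both lines. GABRA4 had 0 counts in both SK-N-MC libraries, and in A4573 it had 13 counts with STAG2 and 1 without, a log2 difference of -2.32 (95% counting interval -9.09 to -0.95). GABRB1 stood at 0.869 CPM with and 0.457 CPM without STAG2 in A4573. GRIA2 was at 0.061 and 0.196 CPM in SK-N-MC and at 0.258 and 0.587 CPM in A4573, with and without STAG2 in each case.

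GRIN2C had the largest difference among the receptor genes of A4573, with 28.2 CPM in A4573 STAG2 KI and 0.685 CPM without STAG2 (log2 difference -5.24, 95% counting interval -6.06 to -4.74). In SK-N-MC it was at 0.307 and 0.196 CPM. GRIK5 went from 26.2 to 78.5 CPM upon STAG2 loss in SK-N-MC (1.58, interval 1.47 to 1.70) but was lower without STAG2 in A4573, at 1.04 against 12.6 CPM (-3.51, interval -4.16 to -3.07). GRM8, another group III receptor, also differed in sign, from 5.34 to 16.7 CPM in SK-N-MC and 22.8 with against 9.29 CPM without STAG2 in A4573. GRIK2, the leading gene in A673, was at 31.6 and 16 CPM in SK-N-MC and 89.4 and 65.3 CPM in A4573, lower without STAG2 in both and short of 2-fold. GABBR1 lay between 38.4 and 82.2 CPM and GRM2 between 7.85 and 18.8 CPM in the 4 isogenic libraries. GABRA2 stood at 9.21 CPM with and 15.6 CPM without STAG2 in A4573, and at no more than 0.491 CPM in SK-N-MC.

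In SK-N-MC 28 receptor genes had enough counts, and 8 were over 2-fold higher and 6 over 2-fold lower without STAG2, against 9.88% and 11.7% of the 16413 genes considered. In A4573 they were 3 and 9 of 24, against 7.37% and 14.7% of 16124. Those with at least 5 CPM in an arm were GRM8 and GRIK5 (higher) and GRIN2D (lower, -1.07) in SK-N-MC, and GRIN2C, GRIK5, GRIA3, GRIK3 (-1.42) and GRM8 (all lower) in A4573. GABRR1, a rho subunit, had 77 counts in unedited SK-N-MC and 0 after KO. The median over receptor genes was 0.46 in SK-N-MC and -0.69 in A4573, and -0.03 and -0.04 over all genes. STAG2 transcript fell from 296 to 183 CPM in SK-N-MC, and the leukocyte markers, nearly all of it PTPRC, stood at 57.9 CPM in the KO against 3.04 CPM, whose part in these differences was not tested.

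**Figure D5:**
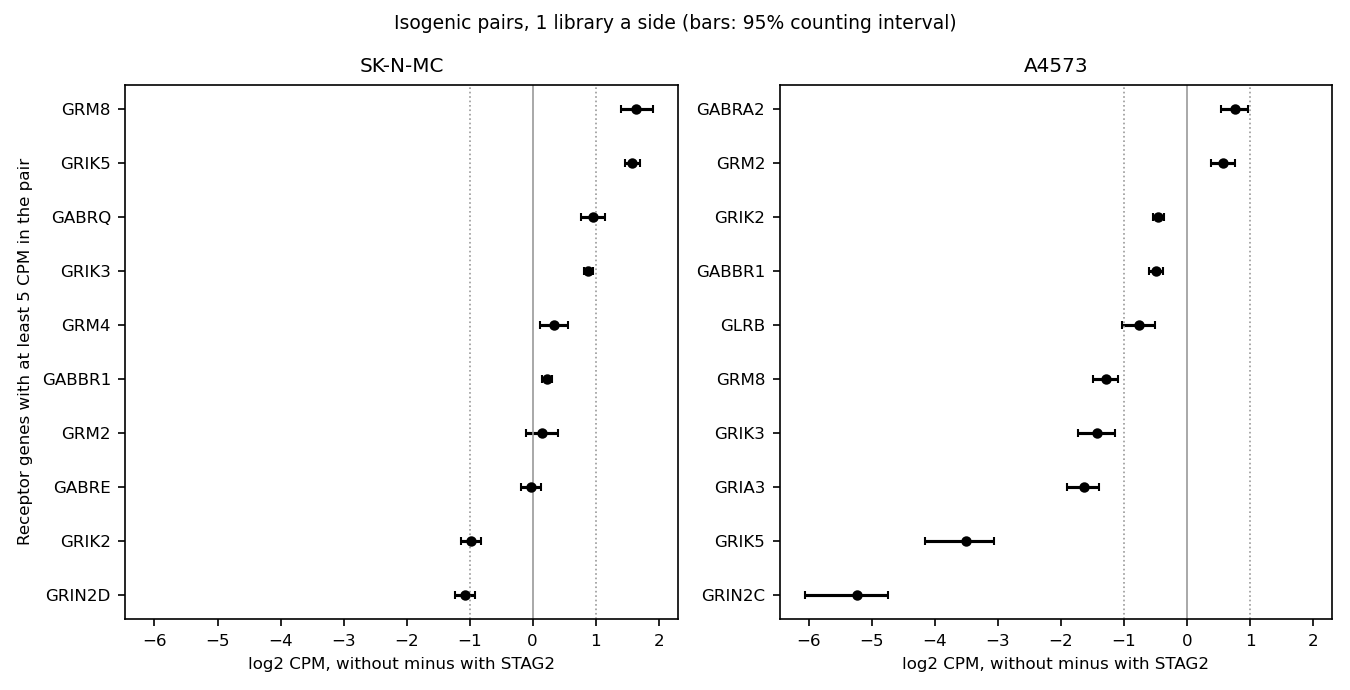
Log2 ratio of CPM without STAG2 over with STAG2 for receptor genes with at least 5 CPM in the SK-N-MC and A4573 pairs, with 95% counting intervals. GRIK5 and GRM8 lie on opposite sides of 0 in the pairs, at 1.58 and 1.64 in SK-N-MC and -3.51 and -1.29 in A4573, and GRIN2C is the lowest in A4573.

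The genes that surround these receptors were followed in a list of 67 transporters, enzymes of transmitter synthesis and breakdown, auxiliary subunits and scaffolds. In STAG2 KO 44 of them were tested and 8 rose and 3 fell, against 6.67% and 5.76% of all genes, with a median log2 change of 0.31 against 0.04. SYNDIG1 and CACNG5 could not have passed the filter on low counts without the controls, nor GAD1 without the KO libraries, so that these counts are a description. NETO1 and NETO2, auxiliary subunits of kainate receptors such as GRIK2, rose by 2.31 ± 0.18 and 1.54 ± 0.34 (edgeR adjusted p = 3.89e-05 and 0.0128), NETO1 from 4.36 to 9.14 CPM in controls to 18.5 to 37.9 CPM. KCTD12, an auxiliary subunit of GABA-B receptors, rose by 3.96 ± 0.47 and GAD1, which makes GABA, by 1.998 ± 0.50. SYNDIG1, which binds AMPA receptors, fell by 7.48 on the log2 scale, from 30.9 to 62.2 CPM in controls to between 0 and 0.833 CPM in the KO libraries. CACNG5, an AMPA auxiliary subunit, fell by 3.53 and the glutamate transporter SLC1A1 by 1.31.

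In the knockdown 32 were tested, of which 5 rose and 6 fell, against 9.54% and 11% of all genes, with a median of 0.03 against 0.01. SYNDIG1 changed by -1.79 ± 0.11 and SLC1A1 by -1.05 ± 0.19, with CACNG3 (-2.86 ± 0.47) and ABAT, which breaks down GABA (-1.12 ± 0.31), also among those that fell. EZH2 KO and SUZ12 KO each had 54 tested, with 15 and 19 higher and 2 and 3 lower, against 12% and 14.7% of all genes higher and 3.69% and 5.87% lower. Their medians were 0.57 and 0.55, where those of all genes were 0.04 and 0.01. Genes near 0 in controls, such as GLDC and SHANK2, entered the test only through the KO libraries, so that these counts and medians are a description. GLDC, an enzyme of glycine cleavage, led in both, with log2 changes of 7.39 ± 1.16 and 9.17 ± 1.16. CACNG8 (5.38), HOMER2 (4.91) and GRIP1 (4.55) followed in EZH2 KO and SHANK2 (6.54), CACNG7 (6.39) and SLC1A6 (6.32) in SUZ12 KO, while SHISA6 was lower in both (-1.69 and -1.48) and the scaffold DLG2 in SUZ12 KO (-1.96).

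STAG1 KO lowered 9 of 46 and raised 0 by edgeR, against 2.5% and 2.77% of all genes (median -0.52 against -0.0028). NETO1 fell by 2.91 and CACNG4 by 2.56 there, with SHANK3 (-1.32) and LIN7A (-1.03). The STAG2 and STAG1 effects differed for NETO1 by 5.18 ± 0.47 (edgeR adjusted p = 3.93e-05) and for CACNG4 by 3.16 ± 0.34, DLG3 and HOMER3 differing by 1.03 and 1.13, and for SYNDIG1 by -6.72 ± 0.78. Between STAG2 KO and PRC2 KO, GAD1 (2.46), CACNG4 (2.19), NETO2 (2.01) and SHISA6 (1.56) were higher and SHANK2 (-7.35), GLDC (-7.03), GAD2 (-6.58) and SYNDIG1 (-6.51) lower in STAG2 KO.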

How the data were processed

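Per the labels and methods, the authors sequenced oligo-dT libraries as 86-nt single reads without strand information and aligned them to hg38 with TopHat2 2.0.0 (Bowtie 0.12.7, SAMtools 0.1.16), allowing 2 mismatches and 5 multihits. They deposited raw counts per gene for the clones and isogenic pairs. The counting program is not given in the sources used here. The knockdown table deposited by the authors holds a normalized signal per gene, reads divided by a size factor, from which whole reads were recovered for 100% of values within 0.1 reads. The isogenic pairs and experiments 1 to 3 were fitted separately.

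Counts were tested on all genes with edgeR 4.0.16 (TMM, quasi-likelihood, filterByExpr, Benjamini-Hochberg, threshold 0.05) in R 4.3.3, with experiment as a term where experiments 1 to 3 were pooled, and the knockdown with limma 3.58.1 on log2(value + 1), as the values are not counts. CPM are TMM-scaled. Pairs were compared on CPM with a prior count of 2. Intervals and floors cover counting error only. DESeq2 1.42.0, other filters, controls and left-out libraries were alternatives. The edgeR step was tested on simulated data with known changes. Positions are from GENCODE 44, promoters from RefSeq (GRCh38.p14).

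The symbol rule that gave the members used no expression values. However, members and gene lists were chosen with earlier results of these data known. Genes were named when called in any test or at 5 CPM or more in a group of clone libraries or an isogenic library, and pathway genes when called beyond a log2 change of 1, at most 4 in each direction.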

Additional observations from a re-analysis of the deposited data

Results flagged for a closer look

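For 3 genes the isogenic pairs moved in opposite directions upon STAG2 loss by more than 2-fold in each. Other genes also had opposite signs but stayed under 2-fold in at least 1 line. The log2 difference without minus with STAG2 was 2.003 in SK-N-MC and -1.63 in A4573 for GRIA3, 1.58 and -3.51 for GRIK5, and 1.64 and -1.29 for GRM8. With 1 library per arm, the difference between the lines was not tested. In SK-N-MC the GRIA3 value rests on 4 and 21 counts. Among 24 combinations of a gene and a group of 4 or more libraries, 0 held a library far from the others.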

How the results depend on the processing

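Of 744 recomputed values of single receptor genes, 648 kept direction and call, 96 lost the call and 0 changed sign. Fits in which a called gene had too few counts to be tested are not among the 744. Of the fits that left out a library, these were 5 of 11 for GABRB1 in STAG2 KO and 3 of 6 for GRIN2C after knockdown. The counts of genes called were less stable. STAG2 KO, with 5 genes called, had 1 in experiment 2 alone, 1 with parental cells as the only control, and 3 when the WT clone pair of experiment 1 was summed, an alternative chosen after seeing the data. EZH2 KO, with 8, had 4 with the WT clone as the only control, and SUZ12 KO lost the calls of GABRA4, GRIA2, GRIK2, GRIN2A and GRIN3B. STAG1 KO, with 2, had 5 by DESeq2. The knockdown, with 4, had 2 when a mean of 50 was required, and the pairs, with 14 in SK-N-MC and 12 in A4573, had 7 and 6 when 50 counts were required, since fewer genes are then considered. The difference of the STAG2 effect between experiments, with 0 by edgeR and 3 by DESeq2, was also added after seeing the data. The cause of the other shifts was not tested.

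Leaving out each library in turn gave 3 to 5 genes called in STAG2 KO, 4 to 10 in EZH2 KO, 6 to 16 in SUZ12 KO, 0 to 4 in STAG1 KO, 3 to 4 in the knockdown, 9 to 13 between STAG2 KO and PRC2 KO, 1 to 4 between the STAG2 and STAG1 effects, 0 to 2 between experiments, 0 to 1 between WT clone and parental cells, and 0 in every fit between EZH2 KO and SUZ12 KO.

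Replicate numbers did not pair the knockdown libraries (correlations of deviations -0.03, 0.01 and -0.01). With the replicate block, 4 receptor genes were called, the same 4 as without it, and GABRA4 changed by -1.73.

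Depth limits the low genes: at 15734628 counts or more per clone library, 31 members were at or under 3 counts in every control, where a loss could not be seen.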
